A study of Rattus norvegicus with 5 samples.

Results

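Glutamate neurons of the rat ventral tegmental area (VTA) that lacked transcripts of the floor plate transcription factor genes *Lmx1a*, *Foxa1* and *Foxa2* were examined in single-nucleus RNA sequencing (snRNA-seq) libraries from 5 rats. A nucleus was chosen when it held at least 2 UMIs (unique molecular identifiers, each standing for 1 captured RNA molecule) of *Slc17a6*, the vesicular glutamate transporter VGLUT2, and at most 1 UMI of *Gad1*, *Gad2* and *Slc32a1* summed. It also had to hold fewer than 10 UMIs of the myelin gene *Mog* per 10000 and fewer than 8 UMIs of the dopamine genes *Th*, *Slc6a3*, *Slc18a2* and *Ddc* summed per 10000, with 0 UMIs of *Lmx1a*, *Foxa1* and *Foxa2*. Of 22084 nuclei with at least 1000 UMIs, more than 200 and fewer than 5000 genes, and under 5% mitochondrial UMIs, 248 met the rule and were thus chosen by their own UMI counts of these 12 genes. They numbered 61, 93, 23, 47 and 24 in rats 1 to 5, or 1.39% ± 1.11 (SD, n = 5) of the nuclei kept. All 5 rats were adult male Sprague-Dawley rats, labelled as given saline and called drug-naïve in a legend, and each library held nuclei of bilateral VTA punches combined within 1 rat. There was thus 1 condition, and the design allowed comparisons between groups of nuclei of the same rats only.

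VTA glutamate neurons load glutamate into synaptic vesicles through VGLUT2 and project locally and to the accumbens, habenula and pallidum, and they take part in reward and aversion. During development, *Lmx1a* and the Foxa factors define the ventral midbrain floor plate, the source of dopamine neurons and of many of the glutamate neurons beside them. Glutamate neurons of other origin surround the VTA in the red nucleus, the caudal hypothalamus, the thalamic border and the rostral hindbrain, and a tissue punch can take in some of them.

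The 5 libraries held between 10193355 and 88576210 UMIs, and the nuclei kept numbered 1813 to 9336 per rat. Libraries stood apart in ways that touch these results. The library of rat 1 lost 3121 of its 5218 barcodes with at least 1000 UMIs to the mitochondrial limit, and its chosen nuclei had the highest median share of mitochondrial UMIs (1.92%, against 0.121 to 0.706% in the other 4 rats). The library of rat 3 was the shallowest, with a median of 2345 UMIs in its chosen nuclei against 3760, 6323, 9254 and 5969 in rats 1, 2, 4 and 5. No barcode was shared between libraries among the chosen nuclei, although 3 of them carried a barcode that was also kept in another library. Doublets were not removed, since the Scrublet caller marked under 0.5% of the nuclei in every library and none of the chosen ones.

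The chosen nuclei carried neuronal RNA in every rat. The summed level of 6 pan-neuronal genes (*Rbfox3*, *Snap25*, *Syt1*, *Nyap2*, *Stmn2* and *Map2*) was 51.8, 54.3, 32.3, 56.1 and 55.4 UMIs per 10000 in rats 1 to 5, against 5.23 to 12.1 in oligodendrocyte nuclei, which had at least 3 *Mog* UMIs, at least 10 *Mog* UMIs per 10000 and 0 *Nyap2* UMIs. The share of *Nyap2* in this gap was therefore fixed by the choice of oligodendrocyte nuclei. *Snap25*, a part of the synaptic release machinery, was detected in 229 of 248 chosen nuclei (92.3%) and *Map2*, a dendritic cytoskeleton protein, in 227. The shallower oligodendrocyte nuclei held a *Snap25* UMI in 45.4% and a *Map2* UMI in 43.6%. *Slc17a6* marked the nuclei because it was part of the rule. As a measure of free RNA, at least 1 *Slc17a6* UMI was found in 463 of 7694 oligodendrocyte nuclei (6.02%, median depth 3004 UMIs) and at least 2 in 51 (0.663%), with a median depth of 5862.5 UMIs in the chosen nuclei. The other vesicular glutamate transporter genes were rare, as *Slc17a7* (VGLUT1) and *Slc17a8* (VGLUT3) were each detected in 4 of the 248.

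Glial RNA accompanied the neuronal RNA in some of them. The summed level of 8 oligodendrocyte genes was 58.8, 45.1, 24.7, 15.6 and 18.0 UMIs per 10000, against 186 to 257 in oligodendrocyte nuclei. Of the 248, 62 nuclei (25%) exceeded 100 oligodendrocyte UMIs per 10000 or 10 UMIs of astrocyte, microglia and precursor genes per 10000. Such nuclei came to 30 of 61, 21 of 93, 4 of 23, 5 of 47 and 2 of 24 nuclei of rats 1 to 5, so they were most frequent in rat 1.

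Members lay close to several edges of the rule. Exactly 2 *Slc17a6* UMIs were held by 142 of the 248 nuclei, 3 UMIs by 57 and 4 or more by 49, while 425 nuclei with 1 *Slc17a6* UMI met every other part of the rule. In 71 nuclei 1 UMI of *Gad1*, *Gad2* or *Slc32a1* was present, and 28 nuclei fell outside by holding 2. The highest dopamine gene level inside was 7.92 per 10000 and the lowest outside was 8.03, and for *Mog* these were 9.49 and 10.6. Another 160 nuclei met the rule but for 1 or more UMIs of *Lmx1a*, *Foxa1* or *Foxa2*, and 33 of these held a single such UMI.

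Glutamate nuclei thus numbered 408, and the share without a UMI of *Lmx1a*, *Foxa1* or *Foxa2* was 77.2, 72.7, 62.2, 40.9 and 49.0% in rats 1 to 5, with a mean of 60.4% ± 15.4 (SD, n = 5). Because the rule chose nuclei on these genes, the share is a description. It moved with depth, and 0 UMIs of 3 genes are reached more easily in a shallow nucleus. The share was 84.4% (54 of 64) in glutamate nuclei of 1000 to under 2500 UMIs, 83.6% (56 of 67) from 2500 to under 5000 UMIs, 56.8% (79 of 139) from 5000 to under 10000 UMIs and 42.8% (59 of 138) from 10000 UMIs on. These ranges pool the 5 rats, which differed in depth as well as in share. How much of the fall went with depth and how much with the rat was not tested. After every nucleus was thinned to 1000 UMIs the mean share was 82.8% ± 7.99. The order of the rats was the same after thinning, with rat 1 highest (92.4%) and rat 4 lowest (73.9%). Shallow nuclei without these UMIs cannot be told apart from nuclei whose few transcripts were missed.

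**Figure D1:**
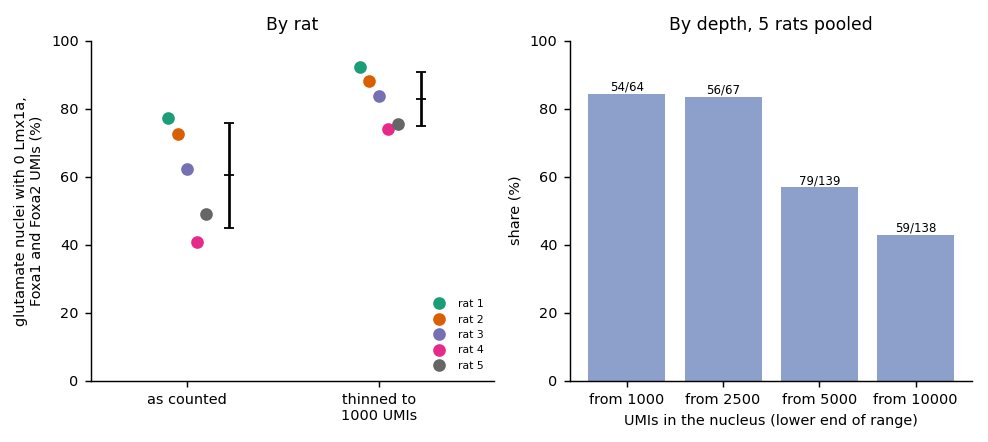
Share of glutamate nuclei with 0 UMIs of *Lmx1a*, *Foxa1* and *Foxa2* (%), left for each rat (points, with mean and SD as the bar) as counted and after thinning to 1000 UMIs, right by the number of UMIs in the nucleus with the 5 rats pooled (bars, with nuclei without over all glutamate nuclei). As counted the rats lie between 40.9 and 77.2%, and the share falls from 84.4% in the shallowest to 42.8% in the deepest nuclei.

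To describe what set these glutamate nuclei apart from the inhibitory neurons of the same punches, they were compared with 1964 GABA nuclei (110, 960, 246, 228 and 420 in rats 1 to 5), which met the same depth, *Mog* and dopamine gene limits, had 0 *Slc17a6* UMIs and held UMIs of at least 2 of *Gad1*, *Gad2* and *Slc32a1*. UMIs were summed per rat and group and tested with edgeR, with the rat as a block. Of 8178 genes tested, leaving aside those that the rule used, 51 were higher (0.624% of the genes tested) and 107 lower (1.31%) in the glutamate nuclei at an adjusted p under 0.05, with 29 and 81 of them in the same direction in all 5 rats. The leading difference was *Cacna2d1*, the α2δ-1 subunit that brings calcium channels to the presynaptic membrane. GABA nuclei instead had more *Cacna2d3*, the gene of the related α2δ-3 subunit, and more *Nrxn3*, a presynaptic adhesion molecule.

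*Cacna2d1* stood at 6.7, 10.9, 10.5, 13.7 and 13.8 UMIs per 10000 in the glutamate nuclei of rats 1 to 5 and at 0.653, 0.755, 0.72, 0.813 and 0.535 in the GABA nuclei. The lowest glutamate value was far above the highest GABA value, and the log2 fold change was 3.95 ± 0.18 (SE) (edgeR adjusted p = 2.9e-12). *Cacna2d3* went the other way, at 2.75, 2.66, 4.51, 3.25 and 0.741 against 7.45, 6.45, 5.53, 11.5 and 9.88 UMIs per 10000, lower in the glutamate nuclei of all 5 rats with no overlap between the groups (log2 fold change -1.69 ± 0.24 (SE), edgeR adjusted p = 0.00015). *Nrxn3* was abundant in both groups, at 18.3, 37.5, 18.2, 33.6 and 31.3 against 60.5, 92.4, 70.6, 121 and 105 UMIs per 10000. Every GABA value was above every glutamate value, and the log2 fold change was -1.77 ± 0.15 (SE) (edgeR adjusted p = 8.3e-08).

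*Bdnf*, *Adcyap1* and *Nrn1* were higher in the glutamate nuclei. They passed the low-count filter, which removes genes of few UMIs before the test, through these nuclei and not through the GABA nuclei. *Bdnf*, which encodes brain-derived neurotrophic factor, was at 0.448, 0.541, 0.361, 0.415 and 0.865 UMIs per 10000 against 0.141, 0.121, 0.072, 0.108 and 0.102 in GABA nuclei. All 5 glutamate values were above all GABA values (log2 fold change 2.21 ± 0.27 (SE), edgeR adjusted p = 2.6e-05). *Adcyap1*, the gene of the peptide PACAP, was at 0.392, 0.445, 0.722, 0.268 and 0.432 against 0.124, 0.0496, 0.054, 0.0611 and 0.0608 UMIs per 10000, again without overlap (log2 fold change 2.66 ± 0.31 (SE), edgeR adjusted p = 1.6e-05). *Nrn1*, which encodes the neurite-promoting protein neuritin, was at 0.953, 0.636, 2.71, 0.366 and 0.556 against 0.212, 0.0821, 0.306, 0.0799 and 0.0576 UMIs per 10000. It was higher in each rat (log2 fold change 2.68 ± 0.25 (SE), edgeR adjusted p = 5.7e-07), with its highest value in rat 3, the shallowest library. By share of nuclei, *Adcyap1* was detected in 43 of 248 glutamate nuclei (17.3%) and 3.46% of GABA nuclei, and *Bdnf* in 51 (20.6%) and 6.36%. Oligodendrocyte nuclei, at a median of 3004 UMIs against 5862.5, held an *Adcyap1* UMI in 1.79% and a *Bdnf* UMI in 1.49%.

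Of the 13 other genes that the naming rule took among those higher, *Adamts2*, a procollagen-processing protease, had a mean of 1.23 ± 0.666 (SD, n = 5) UMIs per 10000 against 0.202 ± 0.101 (SD, n = 5) in GABA nuclei. *Tmem163*, a zinc transporter of synaptic vesicles, had 2.46 ± 0.694 (SD, n = 5) against 0.809 ± 0.26 (SD, n = 5), and *Galnt14*, a glycosyltransferase, 1.78 ± 0.827 (SD, n = 5) against 0.63 ± 0.276 (SD, n = 5). *Dach1* (log2 fold change 0.97 ± 0.17 (SE)), a transcription cofactor, *Elmo1* (0.80 ± 0.15 (SE)), a Rac activator, and *Hs6st3* (0.80 ± 0.15 (SE)), a heparan sulfate sulfotransferase, followed, all with edgeR adjusted p of 0.0048 or less. These 6 kept their calls whichever rat was left out, although *Adamts2* passed the low-count filter through the glutamate nuclei only. *Tiam1*, *Ebf1*, *Slit1*, *Sgpp2*, *Vac14* and *Ntng1* passed on all 5 rats at log2 fold changes from 0.80 to 1.12 but lost their calls without single libraries. For *Tiam1*, a Rac exchange factor, this was rat 2 (0.72, edgeR adjusted p = 0.14), and for *Slit1*, an axon guidance ligand, and *Sgpp2*, a sphingolipid phosphatase, rat 4 (edgeR adjusted p = 0.061 and 0.072). The transcription factor *Ebf1* lost its call without rats 2, 4 or 5 (edgeR adjusted p = 0.088, 0.099 and 0.051), and the lipid kinase scaffold *Vac14* without rats 3, 4 or 5 (0.095, 0.23 and 0.18). *Ntng1*, netrin-G1, lost it without rats 1, 3, 4 or 5 (edgeR adjusted p = 0.06, 0.2, 0.35 and 0.085), and its log2 fold change fell to 0.48 without rat 4. In nuclei thinned to 1000 UMIs *Ntng1*, *Slit1* and *Sgpp2* did not pass either (edgeR adjusted p = 0.34, 0.66 and 0.46). With nuclei over the glial limits removed neither *Ntng1* nor *Vac14* passed (edgeR adjusted p = 0.21 and 0.19). The remaining gene, *Ano5*, is listed directly before *Slc17a6* in the gene order of the files. It passed the low-count filter through the glutamate nuclei only. It was at 0.364, 0.636, 0.722, 1.56 and 2.97 against 0.247, 0.0294, 0.072, 0.108 and 0.0737 UMIs per 10000 (log2 fold change 3.94 ± 0.40 (SE), edgeR adjusted p = 1.8e-06).

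Among genes lower in the glutamate nuclei were transcription factors, several of them known from midbrain GABA neurons. *Meis2* was at 0.224, 0.27, 0, 0.293 and 1.11 UMIs per 10000 in glutamate nuclei against 2.58, 4.28, 1.71, 4.64 and 3.63 in GABA nuclei, without overlap (log2 fold change -3.39 ± 0.28 (SE), edgeR adjusted p = 7.1e-08). *Sox6* was at 2.77, 1.16, 0.542, 0.293 and 0.0618 against 4.13, 3.66, 2, 6.77 and 2.33 UMIs per 10000 and was lower in every rat, although the glutamate nuclei of rat 1 fell within the GABA range (log2 fold change -2.15 ± 0.36 (SE), edgeR adjusted p = 0.0013). Of the glutamate nuclei with a *Sox6* UMI, 14 were among 30 nuclei of a sub-cluster that carried glial genes, described last, and 9 among the other 218. *Gata3* summed to 2 UMIs over the 248 glutamate nuclei and 496 over the GABA nuclei, with 0 UMIs in the glutamate nuclei of rats 1, 3 and 4 (edgeR adjusted p = 1e-05). Of 16 midbrain GABA transcription factors, 5 were abundant enough to test, 4 were lower (*Gata3*, *Meis2*, *Meis1* and *Zfpm2*), none was higher, and *Npas1* did not pass. *Gata3* and *Meis2* would not have passed the low-count filter without the GABA nuclei, where they were high, so this count is no support for a direction of the list. *Sox6*, which is not of this list, passed the filter through the GABA nuclei only as well. *Gata3* and *Meis2* kept their calls without any single rat, whereas *Meis1* and *Zfpm2* were lower in 4 of 5 rats. *Meis1* lost its call without rats 2, 3 or 4 (edgeR adjusted p = 0.26, 0.21 and 0.25), and *Zfpm2* without rats 3, 4 or 5 (0.074, 0.21 and 0.16). Neither *Meis1* nor *Zfpm2* passed in nuclei thinned to 1000 UMIs (edgeR adjusted p = 0.41 and 0.75). Nor did they with nuclei over the glial limits removed (edgeR adjusted p = 0.057 and 0.063).

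The serotonin receptor gene *Htr2c* was at 3.14, 2.5, 4.33, 6.17 and 6.3 UMIs per 10000 in glutamate nuclei and at 5.76, 9.61, 7.65, 19.5 and 12.9 in GABA nuclei. It was lower in each rat, and the ranges overlapped only between rats (log2 fold change -1.37 ± 0.16 (SE), edgeR adjusted p = 1.6e-05). Other genes that were lower included *Pdgfd*, a growth factor (log2 fold change -3.71 ± 0.30 (SE)), *Cadps2*, a priming factor of dense-core vesicles (-2.45 ± 0.21 (SE)), *Pde3a*, a cyclic nucleotide phosphodiesterase (-1.81 ± 0.23 (SE)), the transcription factor *Ebf2* (-1.63 ± 0.19 (SE)) and *Sphkap*, a kinase anchor (-1.60 ± 0.16 (SE)). The rule also named the nuclear receptor *Rorb* (-1.39 ± 0.23 (SE)), *Pdzd2* (-1.39 ± 0.18 (SE)), the receptor phosphatase *Ptpro* (-1.34 ± 0.21 (SE)), the transcription factor *Trps1* (-1.23 ± 0.16 (SE)) and *Cacng4*, an AMPA receptor auxiliary subunit (-1.20 ± 0.21 (SE)). These 10 had edgeR adjusted p of 0.0016 or less, and each was lower in all 5 rats on the normalised scale and kept its call without any single rat. *Pdgfd* and *Pde3a* passed the low-count filter through the GABA nuclei only. In nuclei thinned to 1000 UMIs *Ptpro* (-1.09, edgeR adjusted p = 0.1) and *Trps1* (-0.89, edgeR adjusted p = 0.1) did not pass. The plain level of *Rorb* in rat 3 went the other way, at 0.903 in glutamate and 0.792 in GABA nuclei per 10000.

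**Figure D2:**
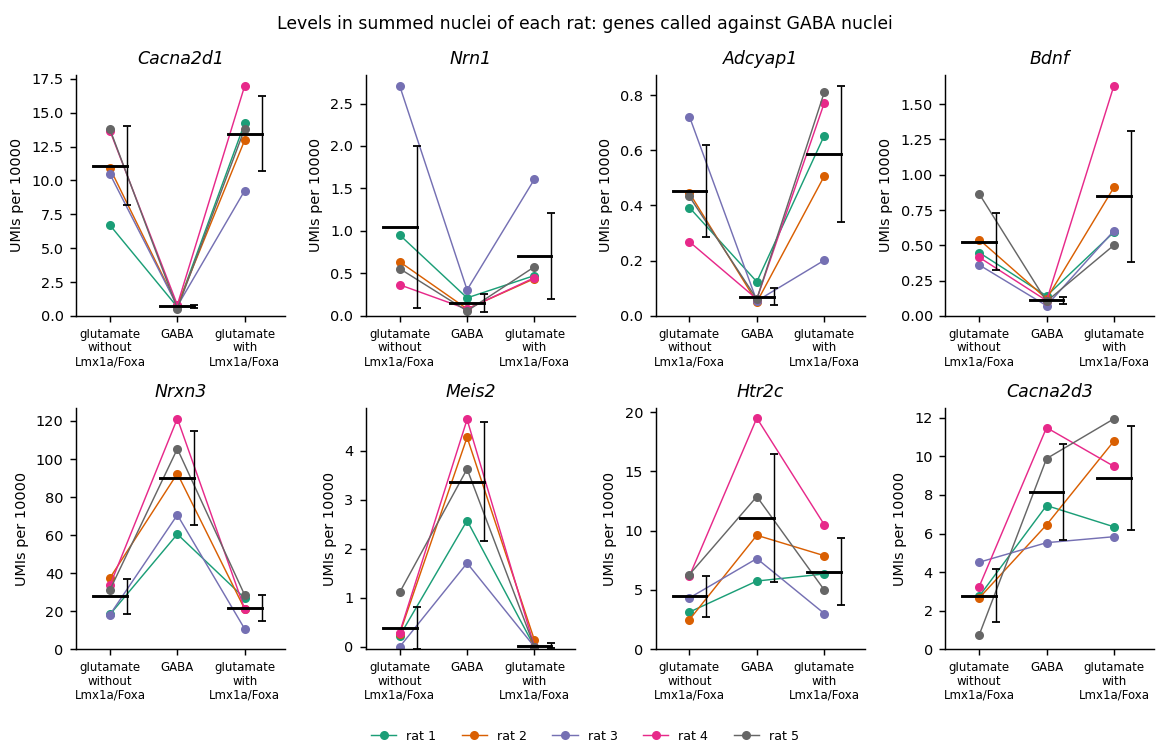
Level of 8 genes in UMIs per 10000 (linear axes) in the summed nuclei of each rat, for glutamate nuclei without *Lmx1a* or Foxa UMIs, GABA nuclei and glutamate nuclei with such UMIs. Points are rats, lines join the groups of a rat, bars are means and whiskers SD (n = 5). *Cacna2d1* lies between 6.7 and 13.8 in the first group and between 0.535 and 0.813 in GABA nuclei, and *Nrxn3* is highest in GABA nuclei of every rat.

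Most genes of synaptic transmission did not pass the test. Of 14 ionotropic glutamate receptor genes tested, 1 was lower (the kainate receptor gene *Grik1*) and none was higher, with a median log2 fold change of -0.03 against -0.02 over all genes. Of 10 GABA-A receptor genes, *Gabrg1* alone was lower (median -0.05), and the potassium channel gene *Kcna2* was higher (0.77 ± 0.17 (SE) on the log2 scale, edgeR adjusted p = 0.016). *Grik1* and *Gabrg1* depended on rat 2, as without it neither *Grik1* (edgeR adjusted p = 0.065) nor *Gabrg1* (0.057) passed. With nuclei over the glial limits removed *Grik1* did not pass either (edgeR adjusted p = 0.25). *Kcna2* lost its call without rats 3, 4 or 5 (edgeR adjusted p = 0.061, 0.073 and 0.095). None of the 8 glutamate handling genes (median 0.04), 6 pan-neuronal genes (0.08), 5 calcium-binding protein genes (0.17), 8 oligodendrocyte genes (-0.17), 2 precursor genes (-0.95) and 2 floor plate genes (0.12) passed. Of 8 genes of cerebellins, neurexins and their partners, *Nrxn3* alone was lower (median -0.12). Among 11 neuropeptide genes tested, *Adcyap1* and *Bdnf* were higher, *Penk*, which encodes enkephalins, was lower and 8 did not pass. *Adcyap1* and *Bdnf* passed the low-count filter through the glutamate nuclei and not through the GABA nuclei, and *Penk* would not have passed on the glutamate nuclei alone, so these counts are no support for a direction of the list. *Penk* lost its call without rats 1 or 3 (edgeR adjusted p = 0.12 and 0.089).

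Astrocyte RNA moved with this comparison. The summed level of 6 astrocyte genes was 6.03, 3.45, 2.71, 0.732 and 0.741 UMIs per 10000 in glutamate nuclei of rats 1 to 5 and 14.4, 5.93, 3.13, 0.724 and 2.27 in GABA nuclei. Of the 5 tested, the water channel gene *Aqp4*, the glutamate transporter gene *Slc1a2* and *Gfap* were lower in the glutamate nuclei, each in 4 of 5 rats. *Slc1a2* and *Gfap* would not have passed the low-count filter on the glutamate nuclei alone, so the count is no support for a direction of the list. All 3 lost their calls without rat 1 (edgeR adjusted p = 0.38, 0.8 and 0.23) and without rat 3 (0.087, 0.13 and 0.089), *Aqp4* also without rat 2 (0.089) and *Slc1a2* without rat 5 (0.08). *Ebf1*, named above, stands in a list of vascular markers too, of which it was the only gene tested. No member of the list was at 0 UMIs in either group. By rat, 77, 322, 41, 23 and 68 of the 110, 960, 246, 228 and 420 GABA nuclei were over the glial limits. After nuclei over the glial limits were removed from both groups, 40 genes were higher and 69 lower, among them 35 of the 51 and 65 of the 107. *Aqp4* then stood at a log2 fold change of -0.01.

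Without the rat as a block 4 genes were higher (*Cacna2d1*, *Adamts2*, *Adcyap1* and *Bdnf*) and 3 lower (*Pdgfd*, *Meis2* and *Cadps2*). Leaving out rat 3, the shallowest library, left 35 higher and 66 lower.

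To ask how these nuclei differed from the glutamate nuclei that did hold *Lmx1a* or Foxa UMIs, they were compared with the latter 160 nuclei (18, 35, 14, 68 and 25 in rats 1 to 5). Of 5661 genes tested, 42 were higher (0.742%) and 61 lower (1.08%) in the nuclei without these UMIs, with 25 and 44 in the same direction in all 5 rats. Median depth was 5862.5 UMIs without and 9890 with these UMIs. The nuclei without them had less of the transcription factors *Bnc2*, *Ebf2*, *Foxp2*, *Ebf3* and *Lmx1b* and of the secreted molecules *Reln* and *Tac1*. They had more of *Dach1*, *Fstl5*, *Fign* and *Mtus2*. These lower genes, and *Adgrv1*, *Sulf1*, *Lmo4* and *Adamts6*, reached the low-count filter through the nuclei with *Lmx1a* or Foxa UMIs only. *Dach1*, *Fign*, *Klhl5*, *Tiam1*, *Nrp1*, *Bcas1*, *Cldn11* and *Nefh* reached it through the nuclei without these UMIs only. The number of such genes is thus no support for a direction.

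*Ebf2* was at 0.28, 0.748, 1.81, 0.512 and 0.371 UMIs per 10000 in nuclei without *Lmx1a* or Foxa UMIs and at 1.13, 6.24, 7.45, 4.75 and 6.05 in those with them. It was lower in each rat, and only rat 1 of the group with them came within the other range (log2 fold change -2.93 ± 0.23 (SE), edgeR adjusted p = 9.9e-07). *Bnc2*, a zinc finger protein, was at 0.168, 0.0318, 0.542, 0.146 and 0.124 against 0.475, 4.72, 2.82, 1.07 and 3.78 UMIs per 10000, lower in each rat (log2 fold change -4.09 ± 0.48 (SE), edgeR adjusted p = 0.00018). *Lmx1b*, a paralogue of *Lmx1a* that the rule did not use and a dopamine lineage factor, was at 0.0841, 0.223, 0, 0.171 and 0 against 0.831, 0.877, 1.01, 1.23 and 1.12 UMIs per 10000. The groups did not overlap (log2 fold change -2.78 ± 0.37 (SE), edgeR adjusted p = 0.00058). It was detected in 11 of 248 nuclei without and 87 of 160 with *Lmx1a* or Foxa UMIs, and in 0.260% of oligodendrocyte nuclei. *Foxp2* was at 1.04, 1.11, 2.17, 3.85 and 0.124 against 6.05, 11.6, 9.66, 5.45 and 10.6 UMIs per 10000 and did not overlap either (log2 fold change -2.50 ± 0.42 (SE), edgeR adjusted p = 0.0033).

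*Reln*, which encodes the extracellular protein reelin, was at 1.37, 0.875, 1.26, 0.268 and 0.371 against 3.56, 5.94, 3.22, 3.21 and 3.31 UMIs per 10000, without overlap (log2 fold change -2.43 ± 0.27 (SE), edgeR adjusted p = 8.8e-05). *Tac1*, the substance P precursor, was at 0.645, 0.398, 0, 0.268 and 0.371 against 1.19, 1.05, 0.604, 0.925 and 1.27 UMIs per 10000 and lower in each rat (log2 fold change -1.43 ± 0.27 (SE), edgeR adjusted p = 0.0073). Without rat 4 its call was lost (-1.33, edgeR adjusted p = 0.068). The adhesion receptor *Adgrv1* (-2.44 ± 0.36 (SE) on the log2 scale), *Cacna2d3* (-1.76 ± 0.30 (SE)), the GTPase-activating protein gene *Arhgap24* (-1.47 ± 0.22 (SE)), the ubiquitin ligase *Marchf1* (-1.43 ± 0.22 (SE)), *Ebf3* (-1.40 ± 0.26 (SE)) and the protease *Adamts6* (-1.31 ± 0.25 (SE)) were lower in all 5 rats and kept their calls without any single rat. *Sulf1*, a heparan sulfate sulfatase (-1.66 ± 0.34 (SE)), lost its call without rat 2 (-1.14, edgeR adjusted p = 0.051), *Lmo4* (-1.35 ± 0.27 (SE)) without rats 2 or 4 (edgeR adjusted p = 0.06 and 0.12) and *Ptpro* (-1.36 ± 0.28 (SE)) without rats 1 or 2 (0.057 and 0.098).

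Among floor plate and dopamine lineage genes other than those of the rule, 3 of 15 could be tested. *Lmx1b* and the nuclear receptor *Nr4a2* were lower in the nuclei without *Lmx1a* or Foxa UMIs, none was higher, and the receptor gene *Ret* had a log2 fold change of -1.0 ± 0.34 (SE) (edgeR adjusted p = 0.17). *Lmx1b* and *Nr4a2* reached the low-count filter through the nuclei with *Lmx1a* or Foxa UMIs only, so this count is no support for a direction of the list. *Nr4a2* was lower in 4 of 5 rats and lost its call without rats 2, 4 or 5 (edgeR adjusted p = 0.23, 0.18 and 0.085). *Pitx3*, *Otx2* and *Msx1* had 0 UMIs in all 248 nuclei, which allows a share of nuclei with a UMI of up to 1.21%. *Otx2* and *Msx1* also had 0 UMIs in the 160 nuclei with *Lmx1a* or Foxa UMIs, and *Pitx3* was found in 8 of these.

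*Dach1* was at 5.8, 13.6, 6.14, 2.2 and 3.83 UMIs per 10000 in the nuclei without *Lmx1a* or Foxa UMIs and at 2.55, 2.09, 0.201, 1.68 and 0.617 in those with them. It was higher in each rat and highest in rat 2 (log2 fold change 1.85 ± 0.32 (SE), edgeR adjusted p = 0.0042). *Fstl5*, a secreted follistatin-like protein, was at 7.2, 3.12, 2.53, 11.7 and 8.22 against 4.57, 0.641, 1.81, 2.57 and 1.39 UMIs per 10000, higher in each rat with overlap between rats (log2 fold change 1.80 ± 0.26 (SE), edgeR adjusted p = 0.0012). *Fign*, a microtubule-severing protein (2.14 ± 0.33 (SE) on the log2 scale), *Klhl5* (1.86 ± 0.28 (SE)), the microtubule protein *Mtus2* (1.52 ± 0.20 (SE)), the acid-sensing channel gene *Asic2* (1.28 ± 0.20 (SE)), the ephrin receptor gene *Epha4* (1.16 ± 0.21 (SE)), *Msi2*, an RNA-binding protein (1.11 ± 0.19 (SE)), and *Sparcl1*, a matrix protein (1.01 ± 0.18 (SE)), were higher in all 5 rats. These kept their calls without any single rat. The sorting receptor gene *Sorcs1* (1.0 ± 0.19 (SE)) lost its call without rat 5 (0.85, edgeR adjusted p = 0.054), *Tiam1* (1.32 ± 0.27 (SE)) without rat 2 (0.97, edgeR adjusted p = 0.21) and the guidance receptor gene *Nrp1* (1.28 ± 0.29 (SE)) without rats 2, 3 or 4 (edgeR adjusted p = 0.23, 0.062 and 0.086).

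Of 16 potassium channel and related genes tested in this comparison, *Kcna2* was higher and *Kcnq5* and *Kcnj3*, which encodes an inwardly rectifying channel subunit, were lower (median log2 fold change 0.16, against 0.04 over all genes). *Kcna2* lost its call without any 1 of the 5 rats, at edgeR adjusted p from 0.054 to 0.14. *Kcnj3* lost it without rats 1, 2, 3 or 5 (edgeR adjusted p = 0.069, 0.13, 0.056 and 0.13), and *Kcnq5* without rat 2 (0.065). None of 14 ionotropic glutamate receptor genes (median 0.02), 10 GABA-A receptor genes (-0.07), 8 cerebellin and neurexin genes (0.07), 7 glutamate handling genes (0.10), 5 peptide and modulator receptor genes (-0.62) and 5 pan-neuronal genes (-0.01) passed. Nor did any of 2 calcium-binding protein genes (-0.29), 2 midbrain GABA transcription factors (0.43), 2 thalamus genes (-0.05), 3 astrocyte genes (0.59) and 1 vascular gene (-0.39). Of 6 neuropeptide genes, *Tac1* alone was lower, and it reached the low-count filter through the nuclei with *Lmx1a* or Foxa UMIs only. *Cacna2d1*, *Adcyap1* and *Bdnf*, which set the nuclei apart from GABA nuclei, did not pass the test between both groups of glutamate nuclei, with *Cacna2d1* at -0.29 ± 0.19 (SE) (edgeR adjusted p = 0.6), *Adcyap1* at -0.68 ± 0.31 (SE) (edgeR adjusted p = 0.39) and *Bdnf* at -0.78 ± 0.32 (SE) (edgeR adjusted p = 0.31) on the log2 scale.

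**Figure D3:**
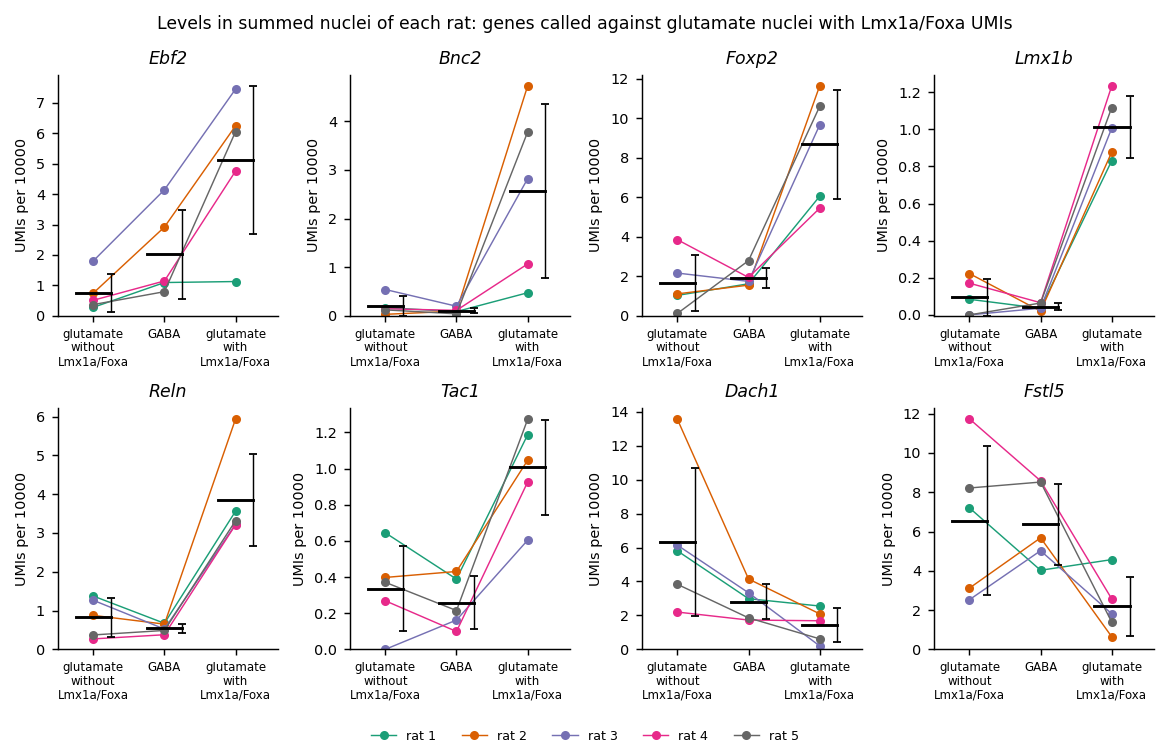
Level of 8 genes in UMIs per 10000 (linear axes) in the summed nuclei of each rat, for glutamate nuclei without *Lmx1a* or Foxa UMIs, GABA nuclei and glutamate nuclei with such UMIs. Points are rats, lines join the groups of a rat, bars are means and whiskers SD (n = 5). *Ebf2*, *Bnc2*, *Foxp2*, *Lmx1b*, *Reln* and *Tac1* are highest in the nuclei with *Lmx1a* or Foxa UMIs in every rat, and *Dach1* in those without, up to 13.6 in rat 2.

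Oligodendrocyte RNA moved with this comparison. The summed level of the 8 oligodendrocyte genes was 58.8, 45.1, 24.7, 15.6 and 18.0 UMIs per 10000 in the nuclei without *Lmx1a* or Foxa UMIs and 26.5, 31.4, 36.0, 7.99 and 10.4 in those with them, so it was higher in 4 of 5 rats. Of the 7 tested, 1 (*Cldn11*) passed and was higher, with a median log2 fold change of 0.70, and no member of the list was at 0 UMIs. *Bcas1*, known from maturing oligodendrocytes (1.38 ± 0.25 (SE) on the log2 scale), *Cldn11*, a tight junction protein of myelin (1.32 ± 0.24 (SE)), and *Tf*, transferrin (0.92 ± 0.21 (SE)), were higher in all 5 rats. The nuclei with *Lmx1a* or Foxa UMIs numbered 18, 35, 14, 68 and 25 by rat. Of these, 5, 6, 4, 0 and 0 were over the glial limits. After nuclei over the glial limits were removed *Bcas1* was at 0.76 (edgeR adjusted p = 0.33), *Cldn11* at 1.09 (edgeR adjusted p = 0.053) and *Tf* at 0.44 (edgeR adjusted p = 0.57) on the log2 scale, so none of the 3 passed, although the fold of *Cldn11* stayed close to its value before. *Bcas1*, *Tf*, *Cldn11*, *Sorcs1* and *Fign* were detected in 97.7, 96.9, 86.1, 86.1 and 50.8% of oligodendrocyte nuclei, against 49.2, 73.0, 42.3, 61.7 and 30.2% of the 248 and 35.0, 66.3, 28.1, 55.0 and 10.0% of the 160. *Fign* and *Sorcs1* kept their calls after the removal. Then 30 genes were higher and 54 lower, among them 24 of the 42 and 49 of the 61. *Cldn11* also lost its call without rat 2 (edgeR adjusted p = 0.058), and *Tf* without rats 1, 2, 3 or 5 (0.15, 0.071, 0.055 and 0.058).

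Without the rat as a block no gene was higher by edgeR (120 at an unadjusted p under 0.05, and 25 by DESeq2 with the block) and 3 were lower, *Bnc2*, *Ebf2* and *Lmx1b*. Counts higher and lower were 21 and 35 without rat 2, 23 and 34 without rat 4, and 23 and 36 without rat 5. With 3 or more *Slc17a6* UMIs required they were 5 and 12 over 3 rats, since rats 3 and 5 then had fewer than 10 nuclei in a group, and in nuclei thinned to 1000 UMIs 31 and 14 of 481 genes tested, so the balance of higher and lower turned.

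Genes that mark neighbouring regions were detected in small numbers of the 248 nuclei, mostly too few for the test. Against GABA nuclei, 1 of 2 caudal hypothalamus genes tested was lower (*Rxfp1*, the relaxin receptor), the only red nucleus gene tested, *Nefh*, was higher, and of 4 thalamus and pretectum genes *Ntng1* was higher and *Tcf7l2*, a Wnt effector, lower. *Rxfp1*, *Tcf7l2* and *Nefh* went that way in 4 of 5 rats. Against the glutamate nuclei with *Lmx1a* or Foxa UMIs, *Rxfp1* was lower (-2.46 ± 0.61 (SE) on the log2 scale, edgeR adjusted p = 0.044, in 3 of 5 rats) and *Nefh* higher (0.97 ± 0.22 (SE), edgeR adjusted p = 0.027). *Nefh* reached the low-count filter of this comparison through the 248 nuclei only. *Tcf7l2*, and *Rxfp1* in both comparisons, would not have passed it on the 248 nuclei alone. These calls are thus no support for a direction of the region lists. Against GABA nuclei *Rxfp1* lost its call without rats 2, 3 or 4 (edgeR adjusted p = 0.19, 0.099 and 0.13) and *Nefh* without rats 1 or 4 (0.11 and 0.067). *Rxfp1* also lost this call with nuclei over the glial limits removed (edgeR adjusted p = 0.055). In the other comparison *Rxfp1* lost it without rat 5 (edgeR adjusted p = 0.077) and *Nefh* without rats 1, 2, 4 or 5 (0.066 to 0.15). *Nefh* was detected in 35.1% of the 248 nuclei, 36.25% of the 160, 26.8% of GABA and 14.2% of oligodendrocyte nuclei. Sub-cluster 1, described below and mostly of rat 1, held 207 of its UMIs, and no other sub-cluster held more than 36. No hindbrain or cholinergic gene was abundant enough to test. *Sim1*, a transcription factor of the caudal hypothalamus, was detected in 19 nuclei (7.66%) against 0.356% of GABA and 0.104% of oligodendrocyte nuclei. By rat, *Sim1* was found in 7, 1, 1, 10 and 0 nuclei, so it came mainly from rats 1 and 4. *Sim1* was present in 1 of the 160 glutamate nuclei with *Lmx1a* or Foxa UMIs (0.625%). The homeobox genes *Shox2* and *Nkx6-1* were detected in 27 (10.9%) and 21 (8.47%) of the 248, against 0.916 and 0.866% of GABA and 0.455 and 0.338% of oligodendrocyte nuclei. By rat, *Shox2* was found in 1, 14, 2, 1 and 9 nuclei and *Nkx6-1* in 2, 15, 0, 4 and 0, so most nuclei with *Nkx6-1* were of rat 2. *Nkx6-1* had 0 UMIs in the 160 nuclei with *Lmx1a* or Foxa UMIs, which allows up to 1.88%. *Pou4f2*, a POU factor, was found in 16 nuclei (6.45%), 14 of them of rat 2, and *Pax8* in 22 (8.87%), 20 of them of rat 2. *Pax8* was found in 6.92% of GABA nuclei too. Other genes of the same region lists, and of hindbrain and cholinergic neurons, were at or near 0. *Foxb1*, *Barhl2*, *Nkx2-1*, *Nkx2-4*, *Gbx2*, *Lhx2*, *Lhx9*, *Phox2a*, *Hoxb2*, *Hoxb3*, *Fev*, *Isl1* and *Slc18a3* had 0 UMIs, *Pou4f1* was found in 1 nucleus and *Tph2*, of serotonin neurons, in 12 (4.84%) against 4.64% of oligodendrocyte nuclei.

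Receptor genes of interest in the VTA were sparse. *Glp1r*, the GLP-1 receptor gene, was detected in 6 of the 248 nuclei (2.42%; 1, 1, 0, 4 and 0 in rats 1 to 5), in 2.09% of GABA nuclei and in 0.0650% of oligodendrocyte nuclei, and it was not among the genes tested. *Hcrtr2*, the orexin-2 receptor, was detected in 49 nuclei (19.8%), *Oprm1*, the μ-opioid receptor, in 47 (19.0%), *Cnr1*, the cannabinoid receptor, in 47 (19.0%) and *Tacr3*, the neurokinin-3 receptor, in 44 (17.7%). These 4 were detected in 0.767, 3.04, 1.99 and 2.12% of oligodendrocyte nuclei, in 15.9, 32.9, 13.2 and 12.9% of GABA nuclei and in 52.5, 50.6, 38.8 and 11.9% of the deeper glutamate nuclei with *Lmx1a* or Foxa UMIs. Of 9 receptor genes tested against GABA nuclei, *Htr2c* and *Calcr*, the calcitonin receptor, were lower and none was higher, with *Oprm1* at -1.15 ± 0.31 (SE) (edgeR adjusted p = 0.053). *Calcr* summed to 14 UMIs, held by 3 of the 248 nuclei, would not have passed the low-count filter on these nuclei alone and lost its call without rats 2 or 3 (edgeR adjusted p = 0.13 and 0.11). Among the calcium-binding proteins *Calb2*, calretinin, was detected most often, in 91 nuclei (36.7%) against 15.5% of oligodendrocyte nuclei, and *Pvalb*, parvalbumin, in 32 (12.9%) against 3.29%. *Calb2* was detected in 28.9% of GABA nuclei and in 51.2% of the deeper glutamate nuclei with *Lmx1a* or Foxa UMIs. For *Pvalb* these shares were 5.65 and 1.88%.

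The 248 nuclei were not uniform. Leiden clustering on 2000 variable genes without those of the rule gave 9 sub-clusters of 14 to 43 nuclei, which are described by their leading genes and carry no cell type name. Clustering used all these genes, so the leading genes are no test. Rats contributed very unevenly, and 2 sub-clusters came from a single rat each.

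Sub-cluster 1 (43 nuclei, 33 of rat 1) was led by the neurofilament genes *Nefm*, *Nefh* and *Nefl*, with *Ppia*, *Hspa8* and the sodium channel subunit gene *Scn4b*. *Nefm* averaged 33.9 UMIs per 10000 in it and 1.99 in the other nuclei, and *Pvalb* and *Spp1* were each detected in 13 of the 43. Its median depth was 1926 UMIs, and it had 77.1 oligodendrocyte and 4.84 astrocyte UMIs per 10000, both second highest among the 9 sub-clusters. Sub-cluster 2 (40 nuclei, 22 of rat 4) was led by *Camk1d*, *Mctp2*, *Etl4*, the receptor kinase gene *Alk*, *Pld5* and *Meis1*, and held 9 of the 22 nuclei with *Sim2*. Sub-cluster 6 (24 nuclei of rats 2, 4 and 5) was led by *Ldb2*, the GABA-A receptor genes *Gabrg3* and *Gabra4*, *Pappa1* and *Sorcs3*, and 8 of its nuclei held *Shox2*.

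Sub-cluster 3 consisted of 31 nuclei, all of rat 2. Since genes had to be detected in 3 rats to be named by the rule, its genes were named after their values were seen. *Pax8* was detected in 19 of the 31 and in 3 of the other 217 nuclei, *Pax5* in 22 and 23, the glycine receptor gene *Glra3* in 28 and 61, and *Pnoc*, the nociceptin precursor, in 20 and 20. *Slc6a5*, the glycine transporter GlyT2 of inhibitory neurons, was found in 14 of its nuclei and in 5 others, and *Pou4f2* in 12 of the 31. *Tacr3* was detected in 19 of the 31. Over all 248 nuclei, 11 held both *Pax8* and *Slc6a5* and 15 both *Pax8* and *Tacr3*. *Dach1* was detected in 30 of the 31 and in 68 of the other 217, and rat 2 also had the highest *Dach1* level.

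Sub-cluster 5 (25 nuclei, 22 of rat 2) was led by *Frmpd4*, *Car10* and *Ptprk*. It had *Sox14* in 9 of 25 nuclei against 4 of 223, *Sertm1* in 22 and 29, *Tenm3* in 23 and 85 and *Shisa6*, an AMPA receptor partner, in 23 and 111, also named after their values were seen. *Shox2* was detected in 7 of its nuclei and *Pvalb* in 8. Sub-cluster 9 (14 nuclei, 11 of rat 4 and 3 of rat 1) was the deepest, with a median of 12198 UMIs. Its genes were also named after their values were seen, as none of the leading ones was detected in 3 rats of it. It had *Prlr*, the prolactin receptor, in 10 of 14 nuclei against 39 of 234 and the metabotropic glutamate receptor gene *Grm8* in all 14. *Sim1* was detected in 8 of the 14 and *Sim2* in 7. *Glp1r* was found in 2 nuclei of sub-cluster 9, 2 of sub-cluster 2 and 2 of sub-cluster 6.

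Sub-cluster 7 was the 23 nuclei of rat 3 and thus followed the library, with *Jund* and *Arglu1*, named after their values were seen, among its leading genes. The remaining pair were led by genes that include glial ones, beside *Slc17a6*. Sub-cluster 4 (30 nuclei) was led by *Lyn*, *Mertk*, *Apbb1ip*, *Prrx1* and *Pdgfra*, with 8.94 astrocyte, 3.79 microglia and 5.34 precursor UMIs per 10000 summed over these lists. Sub-cluster 8 (18 nuclei) was led by *St18*, *Plekhh1* and the glutamate receptor gene *Grm3* and had 126 oligodendrocyte UMIs per 10000, against 6.82 to 77.1 in the other 8. When nuclei over the glial limits were left out, 186 nuclei fell into 8 sub-clusters.

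**Figure D4:**
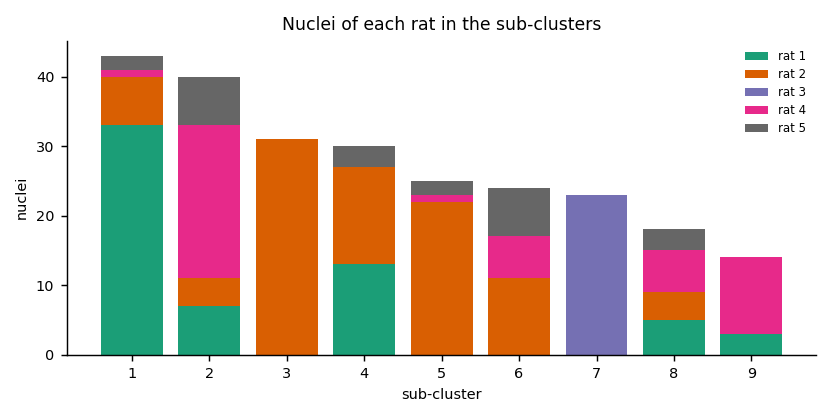
Number of nuclei of each rat (stacked colours) in the 9 sub-clusters of the 248 glutamate nuclei without *Lmx1a* or Foxa UMIs. Sub-cluster 3 holds only nuclei of rat 2 (31) and sub-cluster 7 only nuclei of rat 3 (23), and 33 of the 43 nuclei in sub-cluster 1 are of rat 1.

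**Figure D5:**
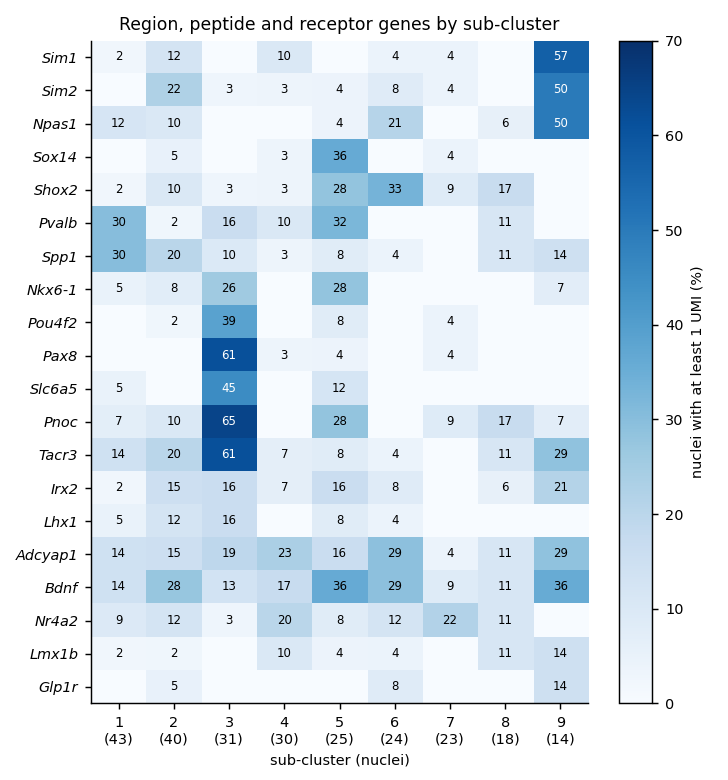
Share of nuclei with at least 1 UMI (%, colour and printed number, blank at 0) of 20 region, peptide and receptor genes in each sub-cluster, with its number of nuclei in parentheses. *Pax8*, *Slc6a5*, *Pnoc* and *Tacr3* are most frequent in sub-cluster 3, *Sox14* in sub-cluster 5, and *Sim1* and *Sim2* in sub-cluster 9, each of these sub-clusters being mostly of 1 rat.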

How the data were processed

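The authors prepared nuclei from VTA punches of 5 rats with the 10x Genomics 3′ kit (version 3.1) and deposited 1 matrix of UMI counts per rat, unnormalised, with 32883 genes. The labels name Cell Ranger 8.0.1 and the matrix headers name version 4, and the genome build is not given in the sources used here. Nuclei were kept with at least 1000 UMIs, more than 200 and fewer than 5000 genes and under 5% mitochondrial UMIs. The lower gene limit and the mitochondrial limit are the study's, which set its upper gene limit on counts corrected for free RNA. No such correction was made here. UMI counts were summed per rat and group (at least 10 nuclei per sum), filtered for low counts and compared by edgeR's quasi-likelihood test (TMM, rat as block, edgeR 4.0.16, R 4.3.3) with Benjamini-Hochberg adjustment over all genes tested (threshold 0.05). All groups came from the same animals, so sums pair by rat. The deviations of same-rat sums from their group means correlated at 0.408 to 0.643 with GABA nuclei. With the glutamate nuclei holding *Lmx1a* or Foxa UMIs they correlated at 0.280 to 0.525. In that comparison the chosen nuclei of rat 5 (0.280) correlated more with the sum of another rat. The test was checked on simulated counts. Levels are UMIs per 10000 of a sum, and fold changes are log2 of the glutamate nuclei without *Lmx1a* or Foxa UMIs over the other group. Nuclei were clustered with scanpy 1.11.5 (30 principal components, 15 neighbours, Leiden resolution 1.0), without doublet removal.

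Members and gene lists were chosen with earlier results of these data known. Named genes were up to 15 per direction with the largest log2 fold change among those that passed, went the same way in all 5 rats on the normalised scale and averaged at least 1 UMI per 10000 in the higher group, with members of the gene lists besides. Sub-clusters were described by up to 8 leading genes that were detected in at least 25% of its nuclei and in at least 3 rats, ranked by ratio of means with 0.2 added. For sub-clusters 3, 5, 7 and 9 genes were also named without the requirement on rats, after their values were seen. Alternatives were no block, DESeq2 1.42.0 and its size factors, no low-count filter, nuclei thinned to 1000 UMIs, 3 or more *Slc17a6* UMIs, other GABA rules, removal of marked doublets or of glial nuclei, and leaving out each rat. Removal of glial nuclei and of the highest 5% of doublet scores was chosen after seeing the data. Counting limits for a count of 0 rest on 3 counts and cover counting error only. A few genes that the naming rule or the lists would bring in are not reported here.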

Additional observations from a re-analysis of the deposited data

Results flagged for a closer look

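In 2 of 61 sets of 5 per-rat values examined, 1 rat lay apart from the others, where chance alone marks about 1 set in 20. The log2 ratio of *Ntng1* in glutamate nuclei without *Lmx1a* or Foxa UMIs over GABA nuclei was 2.44 in rat 4 and 0.0702 to 0.742 in the other 4 rats. The log2 ratio of *Cldn11* over glutamate nuclei with *Lmx1a* or Foxa UMIs was 0.061 in rat 3, the shallowest library, and 0.991 to 1.37 in the other 4 rats.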

How the results depend on the processing

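Against GABA nuclei, no named call reversed in 763 values for 50 genes under the alternatives. It was kept in 607 and lost in 156. Counts higher and lower (51 and 107 as reported) were 4 and 3 without the replicate block, 101 and 259 with no low-count filter, 33 and 51 with 3 or more *Slc17a6* UMIs, and 12 and 17 of 2443 genes tested in thinned nuclei. The count lower was 54 by DESeq2, 196 with GABA nuclei chosen by 2 UMIs summed, 188 with GABA nuclei without limits and 69 with glial nuclei removed. Leaving out single rats gave 35 to 47 higher and 66 to 108 lower. Against glutamate nuclei with *Lmx1a* or Foxa UMIs, no named call reversed in 484 values for 37 genes, with 377 kept and 107 lost. Counts (42 and 61) were 0 and 3 without the replicate block, 123 and 126 with no filter and 5 and 12 with 3 or more *Slc17a6* UMIs. DESeq2 gave 25 higher, and thinned nuclei gave 31 higher and 14 lower of 481 genes tested, with 8 of the 31 and 11 of the 14 shared with the calls reported. Leaving out single rats gave 21 to 49 higher and 34 to 73 lower. Fewer genes were tested in thinned nuclei. With 3 *Slc17a6* UMIs fewer nuclei entered, and rats with under 10 nuclei in a group dropped out, which left 4 rats against GABA nuclei (without rat 3) and 3 in the other comparison (without rats 3 and 5). The cause of the other shifts was not tested. The share without *Lmx1a* or Foxa UMIs was 82.8% after thinning and 56.2 to 65.3% without single rats. Resolution 0.5 gave 5 sub-clusters in place of 9. Libraries of 23 and 24 nuclei in rats 3 and 5 and a depth near 1000 UMIs in the shallowest nuclei limit what low genes can show.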

Other observations

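Of 11 genes tested that are listed within 3 places of those used to choose the nuclei, 3 passed against GABA nuclei. Over all genes of that comparison 0.624% were higher and 1.31% lower. In the other comparison 1 of 6 passed, where 0.742% of all genes tested were higher and 1.08% lower. *Ano5*, directly before *Slc17a6* in the gene order of the files, had a log2 fold change of 3.94 ± 0.40 (SE, edgeR adjusted p = 1.8e-06). As stated above, this gene entered the test through the glutamate nuclei only. *Erich2*, directly before *Gad1*, stood at -1.38 ± 0.29 (SE, edgeR adjusted p = 0.012), although its call was lost without rats 2 or 4 (0.1 and 0.099). *Myo3a*, listed 2 places before *Gad2*, stood at -2.34 ± 0.51 (SE, edgeR adjusted p = 0.013), and its call was lost without rat 3 (0.076). Against the glutamate nuclei with *Lmx1a* or Foxa UMIs, AABR07021704.1, listed 2 places after *Lmx1a*, had a log2 fold change of -1.05 ± 0.19 (SE, edgeR adjusted p = 0.0059). *Erich2*, *Myo3a* and AABR07021704.1 were singled out after their values were seen, and whether reads of the neighbouring gene entered their counts was not tested.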
